A study of Mus musculus with 2 samples.

Results

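Of the 6 genes of the CXCR3 and CXCR6 chemokine axis that were looked up by symbol (the ligands Cxcl9, Cxcl10, Cxcl11 and Cxcl16 and the receptors Cxcr3 and Cxcr6), 5 were measured among the 32285 genes of the feature table. Cxcl11 had no row and is not analysed here. CXCR3 is a chemokine receptor carried above all by activated T cells and natural killer (NK) cells. Its ligands are secreted by cells that sense interferon and draw such lymphocytes into inflamed tissue. CXCL9 depends mainly on interferon-γ, whereas CXCL10 also answers to type I interferon and to NF-κB signals such as TNF. CXCL16 is made as a membrane-anchored protein that metalloproteases can shed, and its receptor CXCR6 marks resident and effector T cells.

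The values come from single-cell RNA sequencing of the temporomandibular joint (TMJ), with 1 library from joints injected with phosphate-buffered saline (PBS) and 1 from joints injected with complete Freund's adjuvant (CFA), an emulsion with killed mycobacteria that inflames the joint. Both were from wild-type C57BL/6 female mice (C57BL/6J in the methods) injected in both joints at 8 weeks of age with 10 µL, for CFA at 5 mg/mL, and collected 3 weeks later, and the labels give an age of 8 to 10 weeks. The methods give n = 3 and describe the tissue of each group as digested in 1 tube, without saying how many mice each library holds. The dissected tissue included condyle, disc, temporal bone, muscle and ligament, and CD45+ immune cells were reduced with magnetic beads in both groups, so shares of immune classes are shares of what the beads left.

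With 1 library per condition no difference could be set against the spread between replicates, and none was tested. Levels are UMIs (unique molecular identifiers, which count captured RNA molecules) of a gene per 1000000 UMIs of a class of cells, written CPM. Square brackets hold exact 95% intervals, which cover counting error only. A ratio is the CFA level divided by the PBS level, and "higher" or "lower" is used for a ratio of at least 2 or at most 0.5 with at least 20 UMIs over both libraries. Of the deposited barcodes, 2667 PBS and 4014 CFA cells held at least 500 genes, at most 10% mitochondrial UMIs and at most 1% hemoglobin UMIs. The hemoglobin limit left out 3178 PBS but 339 CFA barcodes that met the other limits. The libraries shared 10 barcode sequences, 2 of them among these cells. Median UMIs per cell were 7022 in PBS and 6509.5 in CFA. Classes were named from marker genes, and the genes described here were kept out of the clustering. Among genes reaching 20 UMIs in both libraries, the median ratio was 0.865 over all cells, 0.739 in macrophage-like, 0.824 in T and NK-like, 0.922 in neutrophil-like and 0.912 in satellite cell-like cells (log2 shifts of -0.21, -0.44, -0.28, -0.12 and -0.13), and ratios relative to it are called rescaled.

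Cxcl9 (ENSMUSG00000029417, chr5:92321347-92328079, 4 exons) and Cxcl10 (ENSMUSG00000034855, chr5:92346638-92348889, 4 exons) are neighbours on the minus strand of mouse chromosome 5, with 18558 bases between them in GRCm38 (GENCODE M21). Cxcl11 (ENSMUSG00000060183, chr5:92359544-92365485) lies 10654 bases beyond Cxcl10 and is annotated as a polymorphic pseudogene in this reference strain. Cxcl16 (ENSMUSG00000018920, chr11:70453983-70459984, minus strand), Cxcr3 (ENSMUSG00000050232, chrX:101731535-101734269, minus strand) and Cxcr6 (ENSMUSG00000048521, chr9:123806475-123811760, plus strand) lie on other chromosomes.

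The 250 bases before the start of Cxcl9 (chr5:92328080-92328329, minus strand) and of Cxcl10 (chr5:92348890-92349139, minus strand) are shown because these neighbouring genes differed in their CFA to PBS ratios in the same cells. They are from RefSeq (GRCm38.p6) and are written 5′ to 3′ on the strand of the gene, with capitals marking an interferon-stimulated response element (ISRE) core, searched as GAAANNGAAA.
Cxcl9: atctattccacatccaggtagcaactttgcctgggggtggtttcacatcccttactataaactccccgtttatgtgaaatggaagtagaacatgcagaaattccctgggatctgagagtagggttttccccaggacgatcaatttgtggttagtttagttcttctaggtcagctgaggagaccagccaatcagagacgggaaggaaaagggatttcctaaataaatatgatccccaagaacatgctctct
Cxcl10: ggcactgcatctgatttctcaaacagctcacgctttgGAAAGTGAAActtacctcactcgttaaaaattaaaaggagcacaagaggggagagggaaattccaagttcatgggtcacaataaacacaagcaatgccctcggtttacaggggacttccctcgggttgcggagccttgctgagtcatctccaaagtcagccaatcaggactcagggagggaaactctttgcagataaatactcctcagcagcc

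In Cxcl10 the ISRE core lay 213 to 204 bases before the start on the strand of the gene, and no exact match was found in Cxcl9. Exact matches on both strands were also sought to the interferon-γ-activated site TTCNNNGAA and to the κB form GGGNNTTTCC, and neither was present in these windows of Cxcl9, Cxcl10, Cxcr3 or Cxcr6. Of 32851 mouse promoters of the same length, 2.98% held the ISRE core, 7.02% the activated site and 1.41% the κB form. A match of letters is a description and not a measured binding site. Only these exact letters were sought, so the absence of a match does not mean that other forms of such sites are absent.

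Cxcl9 was higher in the CFA library than in the PBS library, in endothelial-like as in fibroblast-like cells. Over all cells it went from 52.3 [49.7–55.1] to 198 [194–203] CPM, a ratio of 3.79 [3.58–4.01], while 9.56% of all genes tested over all cells were at 2 or more and 10.4% at 0.5 or below. The rescaled ratio was 4.38. The UMIs numbered 1424 in PBS and 8816 in CFA. The share of cells holding at least 1 Cxcl9 UMI was 8.14% (PBS) and 14.0% (CFA), or 2.91% and 5.74% once every cell was thinned to 1000 UMIs. Among the 10 named classes with at least 50 cells in each library, Cxcl9 had enough UMIs in 8, was higher in 7 and was lower in 1, the osteoblast and osteocyte-like cells. In PBS the order of the named classes began with endothelial-like (148 CPM), osteoblast and osteocyte-like (99.5) and fibroblast-like cells (43.9), whose intervals did not overlap. In CFA it began with endothelial-like (474), fibroblast-like (435), macrophage-like (171) and mural-like cells (133), again without overlap, and further down most neighbours overlapped. The intervals do not cover the weight of single cells. Without the highest cell, PBS UMIs fell from 94 to 29 in osteoblast and osteocyte-like cells, whose place thus rested largely on 1 cell. They fell from 837 to 404 in endothelial-like and from 227 to 193 in fibroblast-like cells. In CFA the same step took mural-like cells from 302 to 143 UMIs, so their place there also rested in large part on 1 cell. It took endothelial-like cells from 3168 to 2898, fibroblast-like cells from 2223 to 1879 and macrophage-like cells from 2323 to 2134.

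**Figure D1:**
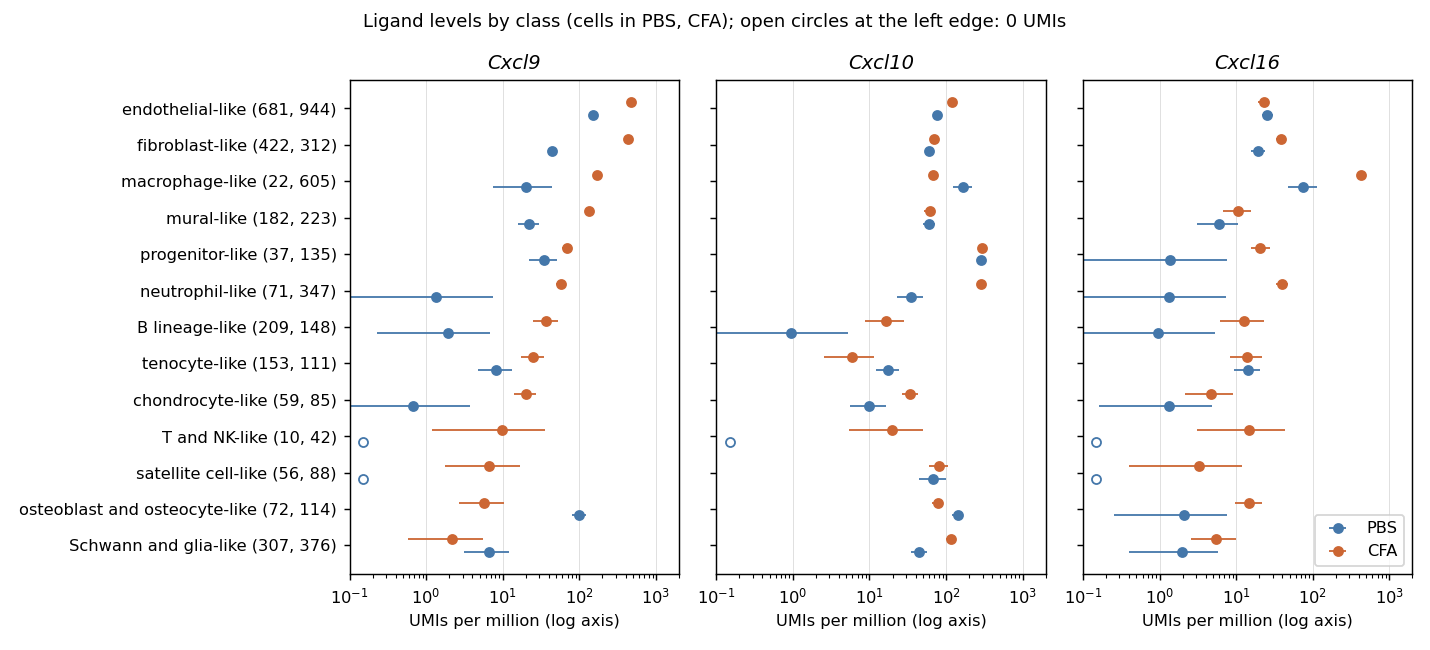
Levels of Cxcl9, Cxcl10 and Cxcl16 in CPM (log axis) by class, with PBS in blue, CFA in orange-brown and bars for the exact 95% counting interval. Numbers beside each class are its cells in PBS and CFA, and open circles stand for classes without a UMI. Cxcl9 lay further right in CFA in endothelial-like (148 to 474) and fibroblast-like cells (43.9 to 435), and Cxcl16 in macrophage-like cells (74.8 to 424), whereas Cxcl10 points of the same class mostly lay close together.

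Endothelial-like cells, which line vessels and present chemokines to passing leukocytes, had the highest Cxcl9 level of the named classes in both libraries. Their level was 148 [139–159] in 681 PBS cells and 474 [458–491] in 944 CFA cells, a ratio of 3.19 [2.96–3.45], against 5.21% of genes at 2 or more and 5.79% at 0.5 or below in this class. The share of endothelial-like cells with a UMI was 18.5% [15.7–21.6] in PBS and 16.8% [14.5–19.4] in CFA, and 6.32% and 6.36% after thinning, so the shares overlapped where the levels did not. Cells with 10 or more Cxcl9 UMIs numbered 6 in PBS and 55 in CFA. Such cells held 61.3% of the endothelial-like Cxcl9 UMIs in PBS and 91.7% in CFA.

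Of the 3168 CFA UMIs in endothelial-like cells, 3018 were in 1 cluster. Cluster 6 was named as venular from Plvap and from Vcam1, Selp and Sele, the adhesion molecules by which inflamed endothelium catches leukocytes. It held 522 Cxcl9 UMIs (370 [339–403] CPM) in 104 PBS cells and 3018 (1083 [1044–1122] CPM) in 183 CFA cells. Its ratio was 2.92 [2.66–3.22], with 5.57% of its genes at 2 or more and 6.56% at 0.5 or below. Here the share of cells with a UMI also moved, from 24.0% [16.2–33.4] to 53.0% [45.5–60.4], and from 5.77% to 24.6% after thinning. A single PBS cell of this cluster held 433 of the 522 UMIs. Without the highest cell of each library the counts were 89 and 2748 and the ratio was 15.1 [12.2–18.9]. For the class as a whole the same step gave 6.01 [5.42–6.69], and thinning every cell to 1000 UMIs gave 1.89, under 2.

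In the other endothelial clusters Cxcl9 was lower or between 0.5 and 2. In cluster 4, led by Hdac9 and Eda and given no subtype name, Cxcl9 was lower, at 177 [152–204] CPM in 139 PBS cells and 79.0 [61.2–100] in 185 CFA cells, a ratio of 0.447 [0.333–0.595] where 9.68% of genes were at 0.5 or below and 5.7% at 2 or more. Its share of cells with a UMI went from 30.9% to 12.4%, and from 12.2% to 3.24% after thinning. Cluster 1 was also lower, with 15 UMIs in PBS and 7 in CFA (0.408 [0.141–1.06], with 9.03% of genes at 0.5 or below and 5.63% at 2 or more), an interval that includes 1. In cluster 2, named as Car4 capillary, the ratio was 0.795 [0.577–1.09] on 110 and 66 UMIs, with 5.8% of genes at 2 or more and 6.09% at 0.5 or below. The arterial cluster 5 held 9 and 10 UMIs, too few for a call, where 6.08% and 5.42% of genes were past these marks. The unnamed cluster 9, whose cells carried endothelial markers but few UMIs, held 51 Cxcl9 UMIs in 75 PBS cells and 6 in 201 CFA cells.

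**Figure D2:**
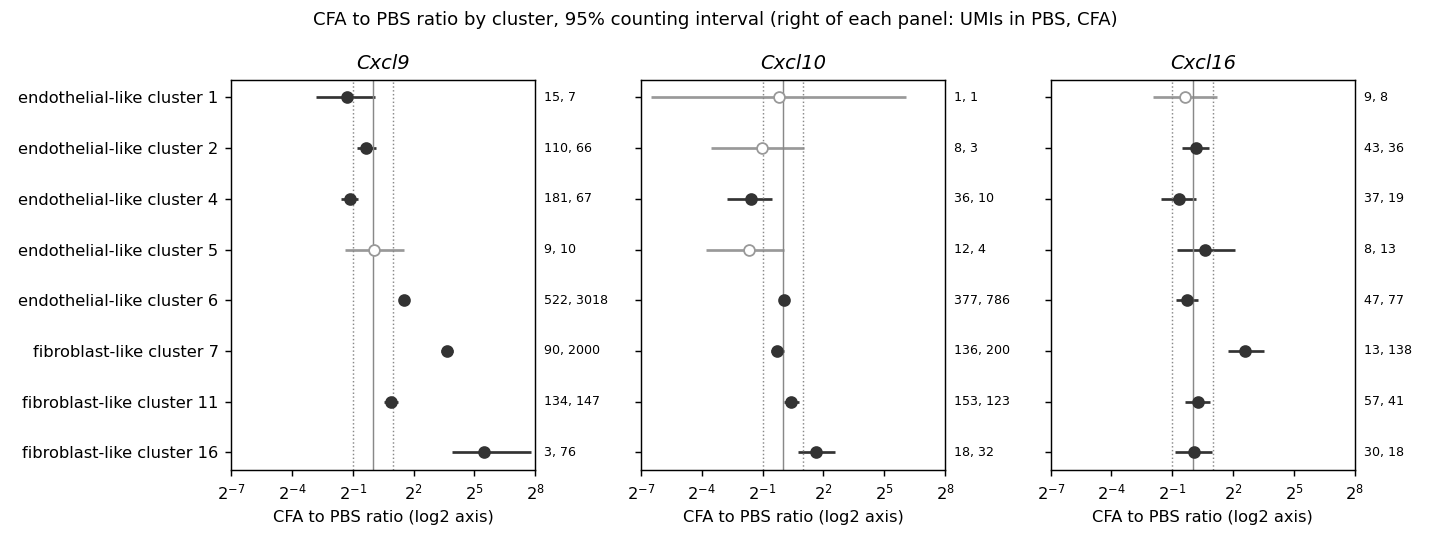
CFA to PBS ratio (log2 axis) of Cxcl9, Cxcl10 and Cxcl16 in each endothelial-like and fibroblast-like cluster, with bars for the 95% counting interval, dotted lines at 0.5 and 2, open grey points for under 20 UMIs and UMIs in PBS and CFA at the right. For Cxcl9, cluster 6 (2.92) lies right of the line at 2 and cluster 4 (0.447) left of the line at 0.5, while fibroblast-like clusters 7 (12.4) and 16 (44.4) lie furthest right.

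In fibroblast-like cells, the matrix-producing cells of synovium and capsule, Cxcl9 went from 43.9 [38.4–50] CPM in 422 PBS cells to 435 [417–454] in 312 CFA cells. The ratio was 9.92 [8.65–11.4], with 5.73% of genes at 2 or more and 6.24% at 0.5 or below. A UMI was found in 8.77% [6.25–11.9] and 29.2% [24.2–34.6] of these cells, or 2.61% and 10.9% after thinning. Cluster 7, named as adventitial from Pi16, Dpp4, Cd55, Sema3c and Ly6c1, held 2000 of the 2223 CFA UMIs, and its own ratio was 12.4 [10.1–15.5] on 90 PBS UMIs, with 8.1% of its genes at 2 or more and 6.03% at 0.5 or below. Its share of Cxcl9-bearing cells was 13.2% in PBS and 40.1% in CFA. In cluster 11, the Pi16-negative sublining cells, the level went from 75.2 to 138 CPM (1.83 [1.44–2.33]), which stayed under 2, a mark that 6.29% of its genes reached (6.46% were at 0.5 or below). Cluster 16, without a subtype name, held 3 UMIs in PBS and 76 in CFA, a ratio of 44.4 [14.6–220] with 4.9% of its genes at 2 or more and 5.92% at 0.5 or below, and 43 of the 76 were in 1 cell. The makeup of the class differed too, because cluster 11 was the largest in PBS (166 of 422 cells) and cluster 7 in CFA (157 of 312).

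Macrophage-like cells numbered 22 in PBS and 605 in CFA, so the class was nearly all from 1 library. Cxcl9 stood at 20.4 [7.49–44.4] CPM in PBS, all 6 UMIs from 1 cell, and at 171 [164–178] in CFA, where 27.1% of cells held a UMI. The ratio was 8.36 [3.84–22.8], with 8.18% of genes at 2 or more, 22.1% at 0.5 or below and a median of 0.712 over all genes tested in the class. The rescaled ratio was 11.3. Without the highest cell of each library no PBS UMI was left, and the unscaled ratio was at least 15.0 with 3 counts put in place of 0. Within the class, the 238 CFA cells of subcluster 2, with complement and Mrc1 macrophage genes and also monocyte genes, held 1526 of the 2323 UMIs (425 [404–446] CPM). Its 17 PBS cells held none, so the ratio was at least 39.7 with 3 counts put in place of 0. The 286 CFA cells of subcluster 1, with Spp1, Ctsk and Acp5 of osteoclasts and Spp1 macrophages, stood at 80.1 [74.5–85.9].

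Smaller counts followed in other classes. Mural-like cells, the contractile cells around vessels, went from 22.0 to 133 CPM (6.04, with 3.77% of genes at 2 or more and 5.03% at 0.5 or below), and the ratio was 3.98 [2.70–6.04] without the highest cell of each library. Neutrophil-like cells held 1 UMI in 71 PBS cells and 172 in 347 CFA cells, a ratio of 43.2 [7.66–1717] with 9.05% of genes at 2 or more and 13.6% at 0.5 or below, and 116 of the 172 were in cluster 14. Tenocyte-like cells of tendon and ligament had 8.25 and 25.0 CPM (3.03, with 4.14% of genes at 2 or more and 5.75% at 0.5 or below). In B lineage-like cells (19.2, with 3.11% of genes at 2 or more and 5.58% at 0.5 or below) 23 of the 29 CFA UMIs were in 1 cell, and in chondrocyte-like cells (30.0, with 6.09% and 6.58%) the 85 CFA cells held 38 UMIs, 3 of them with any. Osteoblast and osteocyte-like cells went the other way, from 94 UMIs in 72 PBS cells to 10 in 114 CFA cells (0.0568, with 5.95% of genes at 0.5 or below and 8.64% at 2 or more), and without the highest cell of each library the ratio was 0.147 [0.0582–0.330]. Schwann and glia-like cells, which are not known as a source of Cxcl9, carried it in 0.977% (PBS) and 1.06% (CFA) of cells at medians of 3827 and 3453.5 UMIs per cell, and these shares stand for background, beside medians of 5708 and 4733.5 UMIs in endothelial-like cells.

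Cxcl10 changed less. Over all cells it was 59.0 [56.2–62.0] CPM in PBS and 99.6 [96.7–103] in CFA, a ratio of 1.69 [1.59–1.79] and 1.95 rescaled. A UMI was found in 8.10% and 12.1% of cells, or in 2.68% and 4.30% after thinning. Of the 10 classes with at least 50 cells in each library, 9 had enough UMIs, 3 were higher, 1 was lower and 5 lay between. The higher ones were Schwann and glia-like, neutrophil-like and chondrocyte-like cells, where 8.44%, 9.05% and 6.09% of genes were at 2 or more. In chondrocyte-like cells all 65 CFA UMIs were in 1 cell. The lower one was the tenocyte-like class, where 5.75% of genes were at 0.5 or below. In PBS the highest levels were in progenitor-like cells (289), followed by macrophage-like (167) and osteoblast and osteocyte-like cells (142), whose intervals overlapped. In CFA they were in progenitor-like (295) and neutrophil-like cells (290), which overlapped, followed by endothelial-like (120) and Schwann and glia-like cells (115), which also overlapped.

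In endothelial-like cells Cxcl10 stood at 77.0 [69.9–84.5] and 120 [112–129] CPM, a ratio of 1.56 [1.39–1.76], and 7.05% and 6.89% of cells held a UMI. Nearly all of it was in the venular cluster 6, with 377 of 434 UMIs in PBS and 786 of 804 in CFA, and the ratio there was 1.05 [0.932–1.20]. The PBS cell with 433 Cxcl9 UMIs also held 225 Cxcl10 UMIs. Without the highest cell of each library the ratio was 2.51 [2.14–2.95] in the class, past 2, and 1.98 [1.65–2.38] in cluster 6. That cell carried 56526 UMIs, all 8 endothelial markers and none of the 6 macrophage genes looked for. In cluster 4, Cxcl10 was lower like Cxcl9, with 36 UMIs in PBS and 10 in CFA (0.335 [0.149–0.690]).

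Fibroblast-like cells, whose Cxcl9 ratio was 9.92, had a Cxcl10 ratio of 1.17 [1.0–1.37], at 59.4 and 69.5 CPM. The adventitial cluster 7 had 136 UMIs in PBS and 200 in CFA, a ratio of 0.823, beside 12.4 for Cxcl9 in the same cells. Cluster 16 alone of the 3 fibroblast-like clusters was higher for Cxcl10, with 18 and 32 UMIs and a ratio of 3.12 [1.70–5.90], of which 15 and 21 UMIs were in 1 cell of each library.

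Neutrophil-like cells were the class with the largest called Cxcl10 ratio among those with at least 50 cells in each library. Their level was 34.6 [22.6–50.7] CPM in 71 PBS cells and 290 [271–310] in 347 CFA cells, a ratio of 8.37 [5.67–12.9], with 9.05% of genes at 2 or more and 13.6% at 0.5 or below. The share of cells holding it was 7.04% and 22.2%, or 2.99% and 14.1% after thinning, and without the highest cell of each library the ratio was 12.2 [7.46–21.4]. Different clusters held most of the class in each library. In PBS, 47 of 71 cells were in cluster 15, led by the granule genes Camp, Ngp and Ltf of maturing neutrophils, and in CFA 182 of 347 were in cluster 14, led by Stfa2l1 and including Retnlg and Cxcr2 of mature ones. Cluster 14 held 754 of the 866 CFA UMIs, and within it the levels were 153 [83.7–257] in 17 PBS cells and 1123 [1044–1206] in CFA, a ratio of 7.34 [4.35–13.5]. Cluster 15 held 2 and 112 UMIs, a ratio of 15.3 [4.13–128].

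In macrophage-like cells Cxcl10 was lower by the rule, at 167 [123–220] CPM in the 22 PBS cells and 67.0 [62.8–71.5] in CFA, a ratio of 0.402 [0.302–0.548], but 22.1% of all genes in this class were at 0.5 or below. The rescaled ratio was 0.544, and without the highest cell of each library it was 0.620 [0.423–0.947], neither of which is at 0.5 or below. In subcluster 2 alone the levels were 175 and 157. Progenitor-like cells, the granulocyte and monocyte precursors of marrow with Mpo, Elane and Prtn3, had the highest Cxcl10 share of any named class, as 18 of 37 PBS cells (48.6%) and 59 of 135 CFA cells (43.7%) held it. Their levels were 289 [251–331] and 295 [274–317] CPM (1.02), and the ratio was 2.54 [2.0–3.27] without the highest cell of each library, since 1 PBS cell held 135 of 210 UMIs. Schwann and glia-like cells, which insulate nerve fibres, were higher, at 44.5 [34.6–56.4] and 115 [99.9–131] (2.58 [1.96–3.44], with 8.44% of genes at 2 or more and 3.01% at 0.5 or below), with a UMI in 6.51% and 7.45% of cells. B lineage-like cells, taken as background, held a Cxcl10 UMI in 0.478% and 4.05% of cells, on 1 and 13 UMIs. They are an uncertain background, since this share differed between the libraries and the class was higher for Cxcl9. In chondrocyte-like cells the ratio of 3.43 rested on 1 CFA cell that held all 65 UMIs. Tenocyte-like cells were lower, with 36 and 8 UMIs (0.336 [0.135–0.736]). Without the highest cell of each library they held 17 and 4 (0.356 [0.0872–1.09]), an interval that includes 1. Mural-like cells were at 60.6 and 60.9 CPM, and satellite cell-like cells, the stem cells of muscle, at 68.4 and 80.1 CPM (1.17, with 8.45% of genes at 2 or more and 6.88% at 0.5 or below).

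Cxcl9 and Cxcl10 were often found in the same cells. In CFA, 31.7% of the 561 cells with a Cxcl9 UMI also held Cxcl10, against 8.92% of cells without Cxcl9, and in PBS the shares were 30.4% and 6.12%. The cells with Cxcl9 were deeper, with a median of 15006 UMIs in CFA against 5710 in the others, and the part of depth in these shares was not tested. Both transcripts were concentrated in few cells. In PBS, 11 cells held 50% of the Cxcl9 UMIs and 20 cells 50% of Cxcl10, and in CFA it was 37 and 49 cells.

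Cxcl16 was largely found in macrophage-like cells in the CFA library, with the classes as named here. Over all cells its level went from 13.1 [11.8–14.6] to 145 [142–149] CPM, a ratio of 11.1 [9.95–12.4], and the share of cells that held it was 8.92% in PBS against 22.5% in CFA (1.57% and 6.51% thinned). Macrophage-like cells held 5768 of the 6458 CFA UMIs, or 89.3%, while they were 15.1% of the cells and held 30.6% of all UMIs of the library. In PBS, where 22 macrophage-like cells were left, they held 6.16% of the Cxcl16 UMIs and endothelial-like cells 40.3%. The level was highest in macrophage-like cells in both libraries. Next came endothelial-like (25.5) and fibroblast-like cells (19.3) in PBS, and neutrophil-like (39.8) and fibroblast-like cells (38.6) in CFA, which overlapped in either library.

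**Figure D3:**
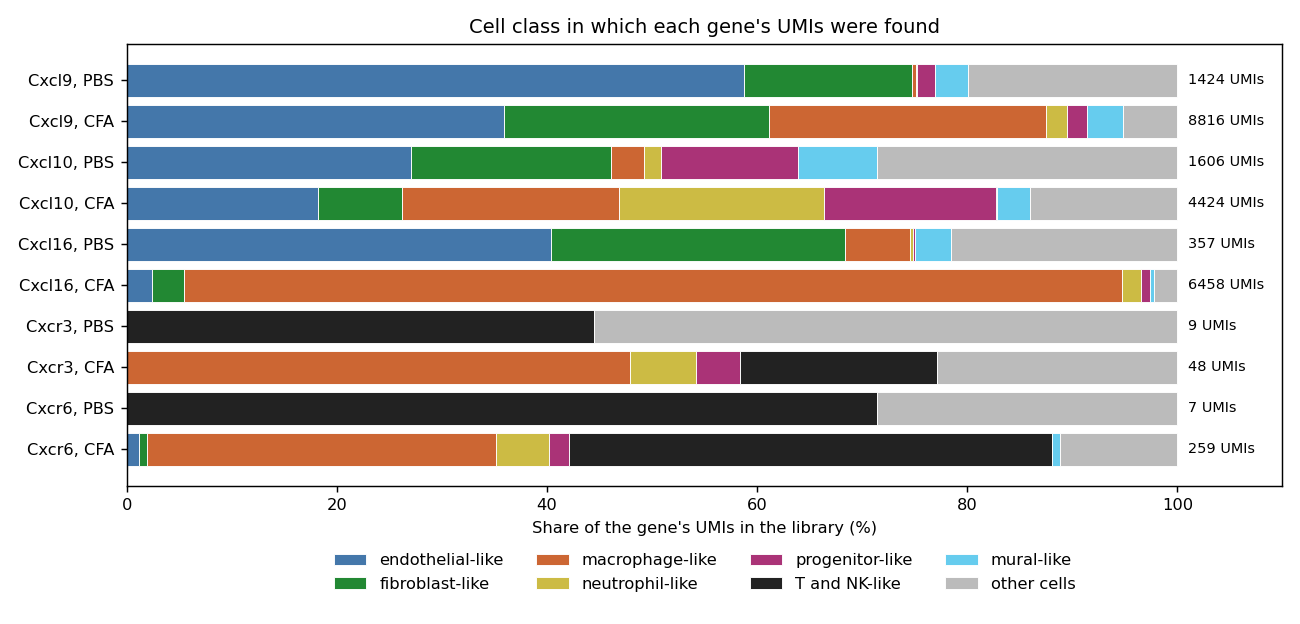
Share of the UMIs of each gene (%) found in each class, in PBS and in CFA, with the gene's UMIs at the right. Macrophage-like cells hold 89.3% of the Cxcl16 UMIs in CFA, Cxcl9 in CFA is spread over endothelial-like (35.9%), macrophage-like (26.3%) and fibroblast-like cells (25.2%), and the Cxcr3 and Cxcr6 bars of PBS rest on 9 and 7 UMIs.

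Within macrophage-like cells the Cxcl16 level was also higher in CFA, at 424 [413–435] CPM against 74.8 [46.9–113], a ratio of 5.66 [3.74–9.04] where 8.18% of genes reached 2, or 7.66 rescaled. It was detected in 89.8% [87.1–92.1] of the CFA cells against 31.8% [13.9–54.9] of the PBS cells, or 31.7% and 9.09% after thinning. Without thinning, B lineage-like cells, taken as background, showed 2.03% in CFA and T and NK-like cells 2.38% (1 of 42). These cells were shallower. Median UMIs over both libraries were 16489 in macrophage-like and 3229.5 in T and NK-like cells, and 3798.5, 2269.5 and 10020 in the B lineage-like clusters. Without the highest cell of each library the ratio was 10.7 [5.98–21.5], as 1 PBS cell held 11 of the 22 UMIs. All 3 CFA subclusters carried Cxcl16, at 449 [435–462] CPM in subcluster 1, 375 [356–396] in subcluster 2 and 254 [208–308] in subcluster 3, and the intervals of these levels did not overlap. Subcluster 2, where 17 PBS cells allow a comparison, had a ratio of 5.85 [3.68–9.89].

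Among the endothelial-like and fibroblast-like clusters Cxcl16 was higher in 1. In the adventitial cluster 7 it went from 7.51 [4.00–12.8] to 44.6 [37.5–52.7] CPM (5.94 [3.36–11.4]), with a UMI in 9.30% and 38.9% of cells, and in none and 5.73% after thinning. The other fibroblast-like clusters had ratios of 1.20 (cluster 11) and 1.05 (cluster 16). For all fibroblast-like cells the ratio was 1.99 [1.56–2.56], just under 2, and 2.03 rescaled. In endothelial-like cells the level was 25.5 [21.5–30.1] in PBS and 22.9 [19.4–26.8] in CFA, a ratio of 0.896 [0.709–1.13] whose interval leaves out 2. Neutrophil-like cells held 1 and 119 UMIs (29.9 [5.27–1191]), and osteoblast and osteocyte-like cells held 2 and 26 (6.94 [1.74–60.3]), with 19 of the 26 in 1 cell.

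Cxcr6 was found in T and NK-like cells in CFA. The class held 10 cells in PBS and 42 in CFA. A Cxcr6 UMI was found in 1 of 10 and in 21 of 42 cells ([34.2–65.8]%), or in 28.2% of CFA cells and no PBS cell after thinning, where the ratio was at least 1.79. Levels were 114 [36.9–265] and 586 [486–702] CPM on 5 and 119 UMIs, a ratio of 5.16 [2.15–16.2] and 6.26 rescaled. All 5 PBS UMIs were in 1 cell, and 20.4% of genes in this small class were at 2 or more and 9.05% at 0.5 or below. Endothelial-like cells, which should lack the gene, showed it in 3 of 944 CFA cells (0.318%). The cells of the class were not alike in the libraries: Ncr1, a receptor of NK cells, was detected in 4 of the 10 PBS cells but 1 of the 42 CFA cells, and Cd3e, part of the T cell receptor complex, in none of 10 PBS cells and 19 of 42 CFA cells.

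Over all CFA cells, 57 held Cxcr6, with 259 UMIs, against 3 PBS cells with 7. Of the 57, 36 carried at least 2 of 5 T cell genes, against 12 of the 3957 CFA cells without Cxcr6, and these 36 held 227 of the UMIs. Among the 57, Icos, a costimulatory receptor of activated T cells, was found in 37, Cd3e in 35, Tbx21, the transcription factor of interferon-γ-producing T cells, in 22, Ifng in 18, Cxcr3 and the γδ receptor gene Trdc in 13 each, and Foxp3, which marks regulatory T cells, in 1. Macrophage-like clusters held 16 of the 57 cells, with 86 UMIs. Of these 16, 12 carried at least 2 T cell genes and 11 of those also at least 3 of 6 macrophage genes. Their median was 36978 UMIs, against 16556 in macrophage-like cells without Cxcr6. Whether such barcodes hold a T cell together with a macrophage was not tested.

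Cxcr3 was too sparse for a comparison within any class. It had 9 UMIs in 5 PBS cells and 48 in 35 CFA cells, or 0.331 [0.151–0.628] and 1.08 [0.797–1.43] CPM (3.27 over all cells). T and NK-like cells held 4 UMIs in 2 of 10 PBS cells and 9 in 4 of 42 CFA cells. Their ratio of 0.488 [0.136–2.17] rested on fewer than 20 UMIs and its interval includes both 1 and 2. Macrophage-like cells held 23 of the 48 CFA UMIs, in 18 of 605 cells, and 8 of these 18 carried at least 2 T cell genes. The unnamed cluster 25, led by Siglech and Flt3, held 2 UMIs in PBS and 7 in CFA.

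Ifng, the gene of interferon-γ and one of the 9 genes of the supply and sensing list, had 2 UMIs in 2 PBS cells and 258 in 24 CFA cells. Of the CFA UMIs, 196 were in T and NK-like cells, 179 of them in 1 cell, and 36 were in 10 macrophage-like cells, 8 of which carried at least 2 T cell genes. Of the 24 CFA cells with Ifng, 18 held Cxcr6 and 12 held Cxcr3. Ifnb1, a type I interferon gene, had 1 UMI, in CFA. The receptor chains had ratios close to 1 in endothelial-like and fibroblast-like cells: Ifngr1 was 1.07 in the former and 0.907 in the latter, and Ifngr2 was 0.984 and 0.920. Irf1, an early target, was not higher in endothelial-like (0.746) or fibroblast-like cells (0.920) but was in neutrophil-like cells (3.20). Of the list, 2 of 8 genes tested were at 2 or more in endothelial-like, 3 of 8 in fibroblast-like, 4 of 9 in neutrophil-like and 2 of 9 in macrophage-like cells, where Ifngr1 (0.384) and Irf1 (0.493) were at 0.5 or below, though neither was so relative to the median ratio of 0.739. Of all genes, 5.21%, 5.73%, 9.05% and 8.18% were at 2 or more in these classes, and 22.1% were at 0.5 or below in macrophage-like cells.

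Genes of the interferon-γ response list were higher in CFA in many classes, not all of which had higher Cxcl9. In endothelial-like cells 14 of 20 tested were at 2 or more and none at 0.5 or below, with a median ratio of 2.65 against 1.0 over all genes tested in the class. The highest were Ubd (35.0), Serpina3g (19.9) and Ciita (13.9), the master regulator of MHC class II genes, and the lowest were Nos2 (0.564), Irf1 (0.746) and Socs1 (0.857). In fibroblast-like cells 16 of 18 were at 2 or more, with a median of 5.86, led by Nos2 (4 and 170 UMIs, 43.0), Gbp4 (25.5) and Iigp1 (9.53). The lowest were Irf1 (0.920), Socs1 (1.14) and Irgm1 (3.81). Gbp4 and Iigp1 encode interferon-induced GTPases of defence inside the cell. Cluster 6 had 14 of 20 (median 3.12) and cluster 7 had 16 of 18 (median 7.99). Cluster 4, where both chemokines were lower, nevertheless had 8 of 16 at 2 or more (median 2.01). Neutrophil-like cells had 14 of 17 (3.52), chondrocyte-like cells 11 of 14 (8.68), mural-like cells 10 of 16 (2.26), tenocyte-like cells 9 of 15 (2.43) and macrophage-like cells 8 of 19 (1.85). In the last, Irf1 (0.493) and Gbp5 (0.443) were at 0.5 or below, though not relative to the median ratio of 0.739. In B lineage-like cells, where Cxcl9 was higher, 2 of 15 were at 2 or more (median 1.09). Schwann and glia-like cells, with 10 and 4 Cxcl9 UMIs, had 13 of 15 (3.10), and satellite cell-like cells, with 0 and 4, had 13 of 14 (7.56). In osteoblast and osteocyte-like cells, where Cxcl9 was lower, 1 of 15 was at 2 or more, and 8.64% of all genes were. This share of all genes was 5.21% in endothelial-like, 5.73% in fibroblast-like, 9.05% in neutrophil-like and 6.09% in chondrocyte-like cells. It was 3.77% in mural-like, 4.14% in tenocyte-like, 8.18% in macrophage-like and 3.11% in B lineage-like cells. In Schwann and glia-like and satellite cell-like cells it was 8.44% and 8.45%, and in clusters 6, 7 and 4 it was 5.57%, 8.1% and 5.7%.

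**Figure D4:**
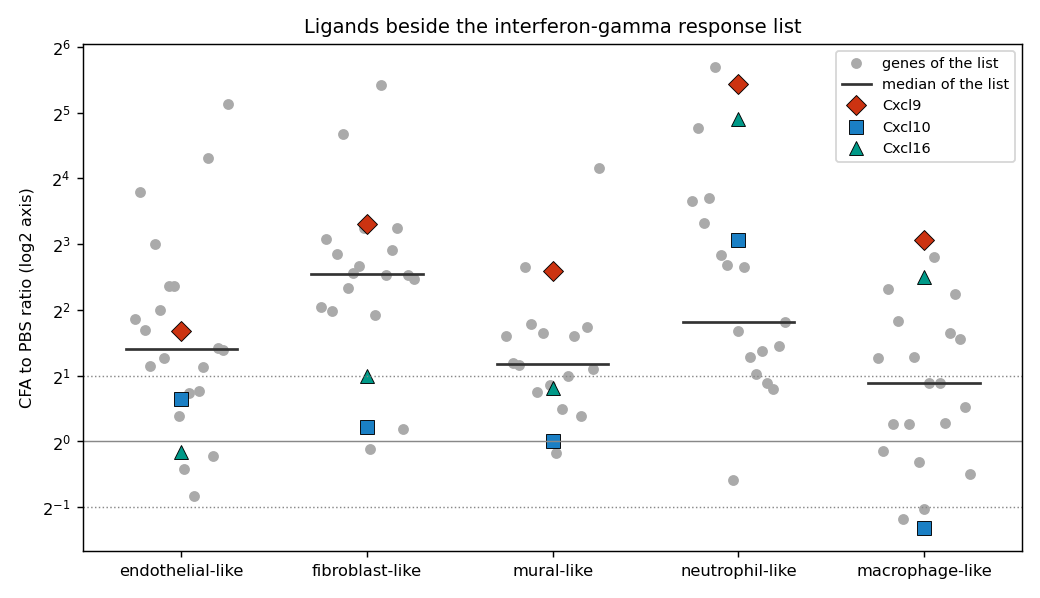
CFA to PBS ratio (log2 axis) of each interferon-γ response gene tested (grey), the median of the list (black line) and the 3 ligands in 5 classes, with dotted lines at 0.5 and 2. Genes without a PBS UMI are drawn at their lower bound. Cxcl9 lies above the list's median in all 5 classes, whereas Cxcl10 lies below it in endothelial-like (1.56 against 2.65), fibroblast-like (1.17 against 5.86), mural-like (1.0 against 2.26) and macrophage-like cells (0.402 against 1.85). The Cxcl9 ratios of neutrophil-like and macrophage-like cells rest on 1 and 6 PBS UMIs.

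The type I interferon response list had different counts in endothelial-like and fibroblast-like cells. In endothelial-like cells none of 11 genes was at 2 or more, with Ifit2 the highest (1.99) and a median of 1.04. In fibroblast-like cells 8 of 11 were, with a median of 4.42, among them Ifi44 (33.5), Oas1a (9.42) and Ifit1 (7.04). In macrophage-like cells none was, and 3 of 11, Ifit1 (0.171), Cmpk2 (0.331) and Ifit3 (0.449), were at 0.5 or below, a share near the 22.1% of all genes there. Ifit3 was not so relative to the median ratio of 0.739. Whether these classes differ beyond the spread between joints was not tested. Of the 8 type I supply and sensing genes, Irf7 (5.73) and Stat2 (3.20) were higher in fibroblast-like cells and none of the 7 tested was in endothelial-like cells. Of all genes tested, 5.73% were at 2 or more in fibroblast-like and 5.21% in endothelial-like cells.

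Of the 6 TNF and NF-κB genes, Tnf was lower in endothelial-like cells (45 and 12 UMIs, 0.225) and held 3 and 20 UMIs in fibroblast-like cells, past a ratio of 2. Tnfrsf1b, a TNF receptor, was higher in fibroblast-like cells (5.47), and Nfkb1, Rela, Nfkbia and Tnfrsf1a lay between 0.5 and 2 in both classes. In neutrophil-like cells 4 of the 6 were at 2 or more, namely Tnf (2.88), Tnfrsf1b (3.69), Nfkb1 (2.17) and the feedback inhibitor Nfkbia (3.64). Of all genes tested in this class, 9.05% were at 2 or more and 13.6% at 0.5 or below. Most cells of the class were in cluster 15 in PBS and in cluster 14 in CFA, and the part of this in these ratios was not tested. Among the 7 genes that process or scavenge these ligands, Ackr1, an atypical receptor of venules that binds many chemokines, was higher in endothelial-like cells, with 194 UMIs in PBS and 750 in CFA (3.26), of which 189 and 746 were in cluster 6. Ackr3 (2.26) and the proteoglycan gene Sdc1 (2.70) were higher in fibroblast-like cells. Dpp4, whose protease trims and inactivates CXCR3 ligands, had a ratio of 0.809 in fibroblast-like cells and 0.478 in cluster 7, where it is one of the markers that gave the cluster its name. Adam10 and Adam17, the sheddases of CXCL16, were near 1 in endothelial-like (1.06 and 1.11) and fibroblast-like cells (1.28 and 1.13), and Adam17 was higher in macrophage-like cells, at 102 and 221 CPM (2.17).

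Of 12 effector lymphocyte genes, 8 could be tested in T and NK-like cells. Of these 8, Ifng was at 2 or more on 2 and 196 UMIs, but 179 of the 196 were in 1 CFA cell. At 0.5 or below were 5 of the 8, among them Xcl1 (26 and 2 UMIs), Gzma (128 and 74 UMIs, 0.125) and Ccl5 (225 and 253 UMIs, 0.244). The class had more NK markers in PBS, as given above. Another of the 5, Nkg7 (0.473), was not at 0.5 or below relative to the median ratio of 0.824. Of 6 naive lymphocyte genes, 2 were tested in these cells and 1 was at 2 or more. Of all genes tested in this class, 20.4% were at 2 or more and 9.05% at 0.5 or below. Over all cells Ccl5, a chemokine of effector lymphocytes that macrophages also make, went from 278 to 9996 UMIs, 8981 of the latter in macrophage-like cells.

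Over 34 sums of class and library with at least 20 cells, the genes whose level ran most alike that of Cxcl9, among 14675, were the interferon-induced Ifi44 (Pearson r = 0.672), Phf11d, Nrp1, Ncoa7 and Usp18 (0.626). Those for Cxcl10 were Hnmt (0.645), 1110002J07Rik, Sh2b2, Nfil3 and Ccl2 (0.603). Those for Cxcl16 were Slamf8 (0.869), Hmox1, Il18bp, Arg1 and Nos2 (0.823), and those for Cxcr6 were the T cell genes Cd3e (0.988), Cd3g, Icos, Cd3d and Themis (0.974). Between Cxcl9 and Cxcl10 r was 0.361. The sums share libraries and differ in depth, and these are descriptions without a test.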

How the data were processed

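Single-cell suspensions of whole TMJ tissue were sequenced by the authors on a droplet platform (10x Genomics). The labels name the v2 and the methods the v3.1 kit, and they also differ on the enzymes used for digestion. The deposited matrices hold raw UMI counts per gene and barcode, made by the authors with Cell Ranger 7.0.1 on GRCm38 (mm10), with 7671 PBS and 5709 CFA barcodes and 51146169 and 53517206 UMIs. The authors' cell annotation was not used here, so classes were rebuilt and may differ from those of the study.

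Cells with at least 500 genes, at most 10% mitochondrial and at most 1% hemoglobin UMIs were kept, 2667 from PBS (27201994 UMIs) and 4014 from CFA (44432717 UMIs). Medians were 2723 and 2516.5 genes per cell. The libraries were integrated in Seurat 5.3.0 with sctransform 0.4.2 (R 4.3.3) on 3000 features and 200 principal components, without the genes described here and without the genes of the lists, and clustered at resolution 1.5. Macrophage-like cells were clustered again at resolution 0.3. A cluster was named where at least 3 markers of a class were held by at least 25% of its cells and were at least 2-fold above the rest, with 10 CPM (UMIs per 1000000 UMIs) added to both levels, and stayed unnamed where its leading genes or low UMIs went against the name. Scrublet (scanpy 1.11.5) called 21 PBS and 2 CFA cells as doublets, too few to rely on, and doublets were kept.

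UMIs were summed per class and library. Exact 95% Poisson (levels), Clopper-Pearson (shares) and conditional binomial intervals (ratios) were computed in scipy 1.17.1. A PBS count of 0 was set to 3 counts and the ratio given as a lower bound. Shares were repeated with cells thinned to 1000 UMIs, and 55 shallower cells of PBS and 129 of CFA dropped out. The 5 genes were named because the rule lists them, and other genes because they are in a list, at its ends, or the 5 most alike in level over sums of at least 20 cells. The genes and lists were chosen with earlier results of these data known. Irf1 and Socs1 are in 2 lists each, and values of another gene of these lists are not reported here. On simulated counts of the endothelial-like comparison (12633 genes), all 145 changed genes with 20 UMIs were called, 1.08% of unchanged genes were called, and 95.7% of intervals covered the true ratio. This coverage does not extend to genes with many UMIs in 1 cell. For Cxcl9 in cluster 6 the ratio moved from 2.92 to 15.1 without the highest cell of each library, outside its interval. The naming recovered 22 of 22 simulated clusters. These were built from the same marker genes that the naming uses, so the result shows that the step runs and does not bear on the names of real clusters. Positions are from GENCODE M21 (GRCm38) and promoters from RefSeq (GRCm38.p6).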

Additional observations from a re-analysis of the deposited data

Results flagged for a closer look

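Endothelial clusters differed in direction for Cxcl9, with a CFA to PBS ratio of 2.92 in the venular cluster 6 and 0.447 in cluster 4. The difference between these clusters was not tested, since each condition had 1 library.

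Ligand UMIs were also found in CFA barcodes that the limits left out. Of the 339 CFA barcodes left out for hemoglobin alone, 7.08% [4.59–10.4] held Cxcl16, against 3.08% [2.51–3.75] of 3178 in PBS. Of the 1356 CFA barcodes with under 500 genes or over 10% mitochondrial UMIs, 3.83% [2.88–5.0] held Cxcl9, 1.99% [1.32–2.88] Cxcl10 and 5.09% [3.98–6.40] Cxcl16, against 0.548%, 0.493% and 0.383% of 1826 in PBS. Such barcodes can hold free RNA as well as cells, and which of these gave the UMIs was not tested.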

How the results depend on the processing

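Of 98 recomputed ratios, 77 stayed inside the counting interval of the reported ratio, and no ratio past 2 moved below 1. In endothelial-like cells, Cxcl9 (3.19) was 3.46 without the hemoglobin limit, 5.73 with each cell classed on its own, 1.89 with cells thinned to 1000 UMIs, 2.16 as a mean over cells, and 4.77 and 6.01 without the 10 highest and the highest cell of each library. Cxcl10 (1.56) was 3.01, 1.25, 1.20, 2.30 and 2.51 under the last 5 of these. In fibroblast-like cells, Cxcl9 (9.92) was 8.59 without the hemoglobin limit, 8.20 with the genes kept in the integration, 7.78 thinned, 7.30 as a mean over cells and 12.5 without the 10 highest cells. Cxcl10 there (1.17) was 0.905 thinned and 0.999 as a mean over cells, and Cxcl16 (1.99) was 1.46 thinned. Cxcl16 in macrophage-like cells (5.66) was 2.62 with each cell classed on its own, and Cxcr6 in T and NK-like cells (5.16) was at least 1.79 thinned. The macrophage-like class of CFA (605 cells, 5768 Cxcl16 UMIs) varied in size. It held 296 cells and 1947 UMIs without the hemoglobin limit, 370 and 2277 at 1000 genes or more, and 304 and 1504 with the genes kept. It held 606 and 5769 at resolution 0.8. The 89.3% of Cxcl16 UMIs in this class thus holds for the classes as reported. The causes were not tested. Leaving out the highest cells was chosen after seeing the data. T and NK-like cells formed no class at resolution 0.8 or with the genes kept, so 4 values could not be given. Cxcr3 had 13 UMIs in the 10 PBS and 42 CFA T and NK-like cells, too few for a call. No paired analysis was possible because each condition had 1 library.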

Other observations

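Unnamed clusters also held Cxcl9. Cluster 8, led by C1qtnf12, Mucl2 and Cpox, went from 18.1 [13.6–23.5] to 178 [153–206] CPM, and 7 of 131 cells (5.34%) held it in PBS against 33 of 147 (22.4%) in CFA. Cluster 20, led by Lsamp and Col8a1, held 19 and 88 UMIs, 67 of the latter in 1 cell.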
